A study of Homo sapiens with 6 samples.

Results

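The 48 genes described here encode the proteasome and the proteins that assemble and regulate it. They were taken by gene symbol from a deposited table of 20014 genes, and all 48 were found. They comprise the alpha and beta rings of the 20S core, the base and lid of the 19S cap, the inducible catalytic subunits of the immunoproteasome, assembly chaperones, activators and an inhibitor. Poly(A)-selected RNA was sequenced from 6 libraries of HaCaT, an established line of immortalized human keratinocytes. In 3 libraries the cells carried a lentiviral CRISPR guide against STUB1 and have the genotype label STUB1 knockout. In the other 3 libraries the cells carried a control guide from the same vector system and have the genotype label WT. Both groups shared the vector, the sorting into plates as colonies and the absence of any further treatment. Whether a group's libraries are separate clones, cultures or preparations is not stated in the labels, so every p-value reflects the spread among these 6 libraries alone, and that spread may be technical.

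The proteasome is the protease that degrades proteins tagged with ubiquitin. Its core is a stack of rings: outer rings of alpha subunits that gate the entrance, and inner rings of beta subunits that hold the cutting sites, while the cap recognizes, unfolds and feeds in the substrate. Interferon induces replacement catalytic subunits, which turn the core into the immunoproteasome and favour the peptides shown on MHC class I. When proteasome activity is short, the transcription factor encoded by NFE2L1 drives the subunit genes through antioxidant response elements in their promoters. STUB1, also called CHIP, is a ubiquitin ligase that works with the HSP70 and HSP90 chaperones and marks their clients for this protease.

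Promoters of 6 members are shown first, searched for motifs through which constitutive or inducible proteasome genes are known to be controlled. Not every window holds a match to each motif: that of PSMC5 holds only a CCAAT box, and that of PSMB9 an antioxidant response element and a CCAAT box but neither interferon motif. PSMD12, PSMD3 and PSMC5 are constitutive cap subunits whose levels were lower in the knockout libraries under every setting tried. PSMB9, PSMB10 and PSME2 are interferon-inducible genes that did not pass the test. Each sequence is the 250 bases before the RefSeq start on GRCh38.p14, written 5′ to 3′ on the gene's own strand. The windows are PSMD12 at chr17:67366578-67366827 (minus strand), PSMD3 at chr17:39980557-39980806 (plus strand), PSMC5 at chr17:63827181-63827430 (plus strand), PSMB9 at chr6:32853942-32854191 (plus strand), PSMB10 at chr16:67936851-67937100 (minus strand) and PSME2 at chr14:24146611-24146860 (minus strand). Capitals mark matches, on either strand, to the antioxidant response element TGANNNNGC, the CCAAT box, the interferon-stimulated response element GAAANNGAAA and the gamma-activated sequence TTCNNNGAA.
PSMD12: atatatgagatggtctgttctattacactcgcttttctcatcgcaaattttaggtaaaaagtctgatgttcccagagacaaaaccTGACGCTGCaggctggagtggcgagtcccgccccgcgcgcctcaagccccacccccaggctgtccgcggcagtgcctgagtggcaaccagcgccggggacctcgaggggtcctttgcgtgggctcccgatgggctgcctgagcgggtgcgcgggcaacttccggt
PSMD3: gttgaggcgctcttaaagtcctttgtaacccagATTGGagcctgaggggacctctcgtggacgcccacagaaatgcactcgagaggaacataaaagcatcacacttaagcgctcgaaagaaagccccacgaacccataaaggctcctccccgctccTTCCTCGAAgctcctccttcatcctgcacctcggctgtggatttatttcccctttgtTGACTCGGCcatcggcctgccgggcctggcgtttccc
PSMC5: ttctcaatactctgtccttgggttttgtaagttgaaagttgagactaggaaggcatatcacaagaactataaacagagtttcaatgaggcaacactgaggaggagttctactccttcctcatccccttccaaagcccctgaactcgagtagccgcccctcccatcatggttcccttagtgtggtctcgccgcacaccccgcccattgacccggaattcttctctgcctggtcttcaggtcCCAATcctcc
PSMB9: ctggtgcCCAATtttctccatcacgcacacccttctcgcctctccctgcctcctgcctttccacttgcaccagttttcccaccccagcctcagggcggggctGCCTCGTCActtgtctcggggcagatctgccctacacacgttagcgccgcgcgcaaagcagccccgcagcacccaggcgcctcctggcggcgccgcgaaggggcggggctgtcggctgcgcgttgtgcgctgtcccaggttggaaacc
PSMB10: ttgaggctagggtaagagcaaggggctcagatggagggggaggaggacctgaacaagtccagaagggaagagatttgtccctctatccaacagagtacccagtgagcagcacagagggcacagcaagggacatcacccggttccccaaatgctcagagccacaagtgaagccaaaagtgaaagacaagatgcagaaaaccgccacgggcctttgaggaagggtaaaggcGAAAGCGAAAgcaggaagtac
PSME2: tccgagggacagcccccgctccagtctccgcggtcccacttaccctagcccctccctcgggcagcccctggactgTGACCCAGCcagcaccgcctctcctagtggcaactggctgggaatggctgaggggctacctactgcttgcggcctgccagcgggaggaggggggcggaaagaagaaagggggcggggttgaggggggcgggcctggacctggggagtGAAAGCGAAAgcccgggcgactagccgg

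Over windows of 300 bases, from 250 before to 50 after the start, 42 of the 48 members matched a RefSeq promoter. The antioxidant response element letters were found on either strand in 25 of 42 (59.5%), against 43.1% of 8912 promoters of tested genes. They were in 7 of the 15 lower members with a promoter and in 18 of the 27 others. The CCAAT box was in 19 of 42 (45.2%), against 37.5% of tested genes, with 10 of 15 among the lower members and 9 of 27 among the others. The interferon-stimulated response element was in 6 of 42 (14.3%), against 2.6% of tested genes. The 6 genes were PSMA4, PSMB4, PSMB10, PSMG4, PSME1 and PSME2. The gamma-activated sequence was in 4 of 42 (9.5%), against 6.2% of tested genes, and the kappa B motif was in 0 of 42 windows, against 12.9% of tested genes. The letters of these motifs are matches in a window and were not tested as sites.

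The unit was FPKM, fragments scaled to transcript length and library total, so levels of different genes are on a per-length scale. Tests used limma on log2(FPKM + 1), and a gene is called lower or higher at an adjusted p (Benjamini-Hochberg over 11262 genes) under 0.05. Fold changes are STUB1 knockout over control on that log2 scale. STUB1 itself had 21.6, 24.7 and 23.2 FPKM in the knockout libraries, against 37.8, 41.9 and 52.7 FPKM in the control libraries, a level of 52.5% of control (log2 fold change -0.89, SE 0.116, adjusted p = 0.00125). Over all tested genes, 1500 were lower (13.3%) and 1079 were higher (9.58%). After conversion to TPM the split was 1622 lower and 667 higher. Control 3 stood apart for the genes described here: its median ratio to the mean of controls 1 and 2 was 1.21 over the members and 0.989 over all tested genes. Mitochondrially encoded genes took 26.17%, 30.85% and 29.57% of FPKM in the knockout libraries and 26.82%, 24.74% and 20.91% in the control libraries. Of 8 keratinocyte markers, 7 averaged at least 1 FPKM and summed to 617 to 636 FPKM in the knockout libraries and 384 to 472 FPKM in the control libraries. Of these 7, KRT5, COL17A1 and KRT6A were higher in knockout (log2 fold changes 0.82, 0.72 and 0.90; limma adjusted p = 0.000267, 0.00479 and 8.98e-05), and DSG3, TP63, ITGB4 and KRT15 did not pass the test (0.23, 0.012, -0.031 and -0.24). With the replicate number as a block KRT15 was lower (limma adjusted p = 0.0494). The basal keratin KRT14 lay at only 0.162 to 0.328 FPKM. Of 9 leukocyte markers only LCP1 reached 1 FPKM, with 96.04, 88.7 and 89.9 FPKM in the knockout libraries, against 87.9, 91.7 and 73.6 FPKM in the control libraries, while PTPRC, CD3E, LYZ and HLA-DRA were below 0.05 FPKM throughout. Of 8 fibroblast markers 0 reached 1 FPKM, and of 6 melanocyte markers 2 did, with TYR, TYRP1 and DCT below 0.05 FPKM. In bulk RNA, fewer cells of a type and less RNA per cell cannot be told apart.

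Of 32 genes for constitutive subunits of the core and cap, 13 were lower in the STUB1 knockout libraries (40.6%), against 13.3% of all tested genes. The 3 immunoproteasome subunits did not pass the test in either direction. Neither did the 3 constitutive catalytic subunits or the 4 other base subunits, which are among the 32. All 48 members passed the filter on low values and were tested. Of them 16 were lower (33.3%), against 13.3% of all tested genes, and 0 were higher, against 9.58%. At an unadjusted limma p under 0.05 the counts were 25 lower (52.1%) and 0 higher, against 21% and 17.1% of all tested genes. The log2 fold change was below 0 for 39 of 48 members. Its median was -0.23, beside -0.01 over all tested genes. The groups did not overlap for 27 of 48 members lower in the knockout libraries, against 25.3% of all tested genes. They did not overlap for 2 of 48 higher in them (PSMD2 and PSMF1), against 20.4%. Together the members took 1.14% of nuclear-encoded FPKM in each knockout library, against 1.27%, 1.25% and 1.38% in the control libraries. Control 3 was the highest of the 6 libraries for 39 of 48 members, against 31.6% of all tested genes, and the median fold change without it was -0.14. The median was -0.11 once GC content and exonic length had been regressed out within each library (the GC and length correction). The part of control 3 and of base composition in the lower values was not tested beyond these figures.

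**Figure D1:**
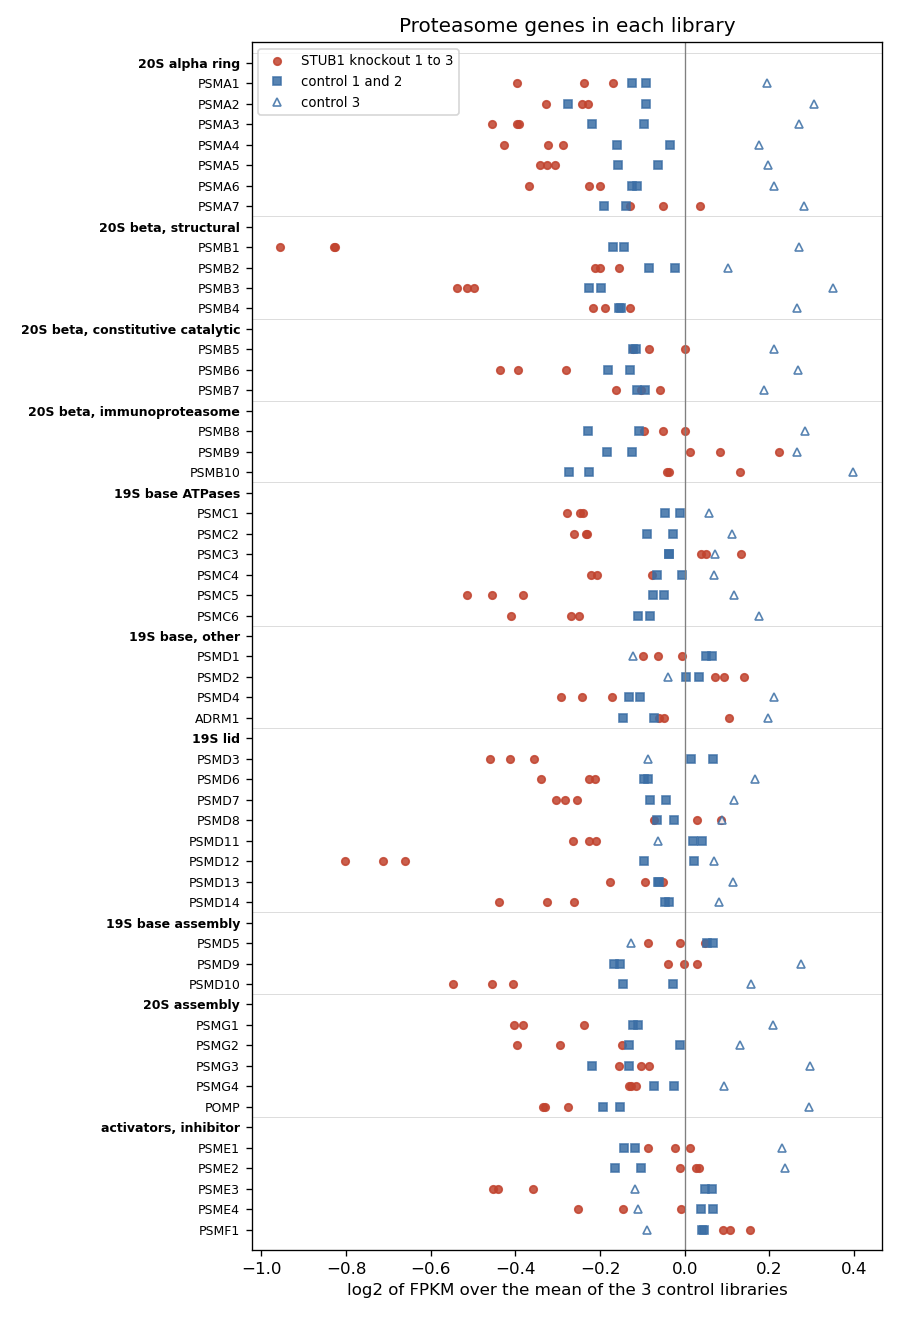
Level of each of the 48 proteasome genes in every library, as log2 of FPKM over the mean of the 3 control libraries (horizontal axis), grouped by subcomplex. Red circles are the STUB1 knockout libraries, blue squares controls 1 and 2, and open triangles control 3, which is the highest library for 39 of the 48 genes.

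**Figure D2:**
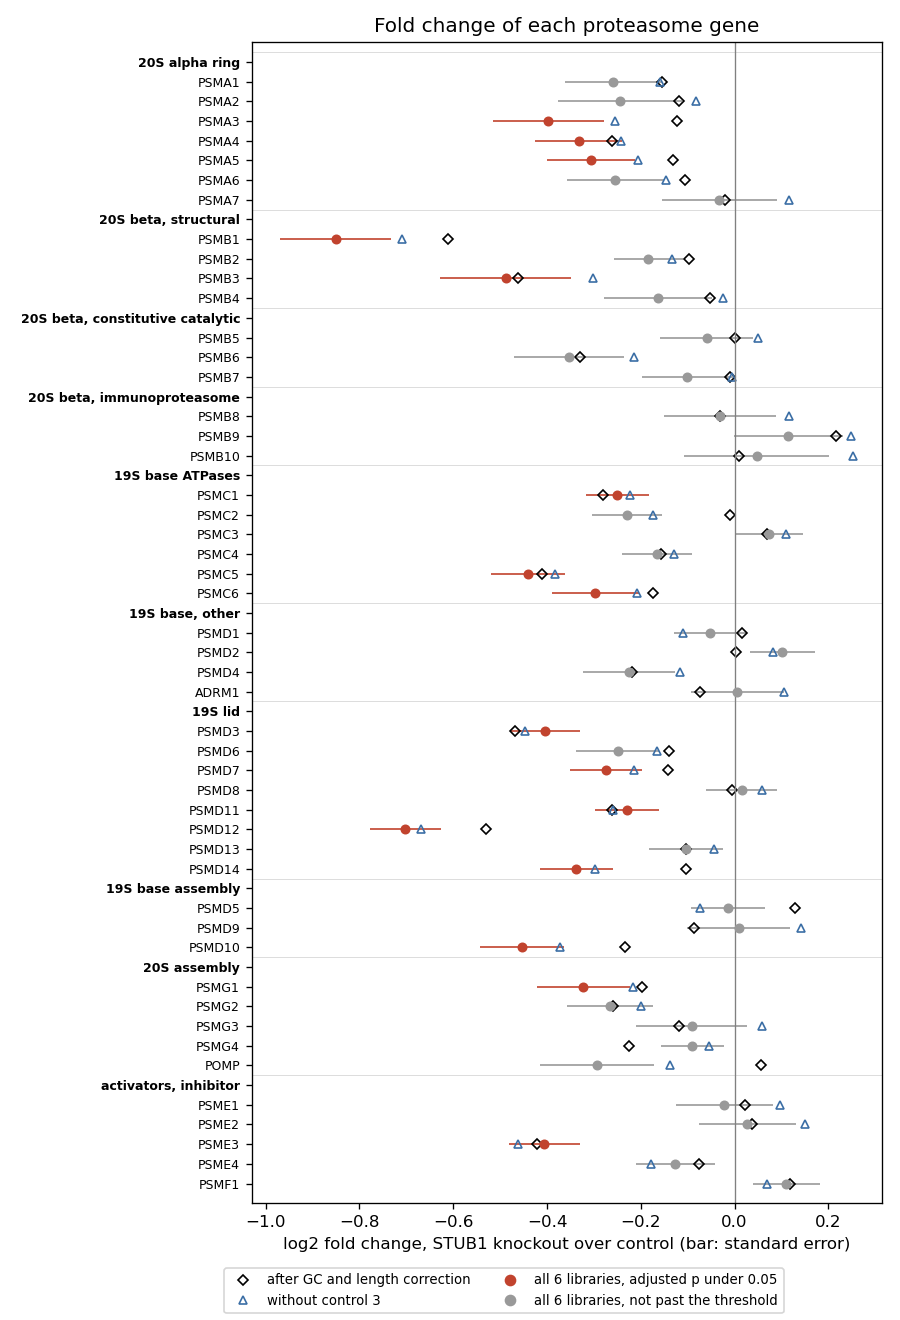
Log2 fold change of each gene, STUB1 knockout over control (circles, with the standard error as a bar), with the value after GC and length correction (diamonds) and without control 3 (triangles). Red circles are the 16 genes past the threshold, all of them below 0, and grey circles are the other 32.

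The alpha ring, which gates the core and docks the cap, was lower in 3 of 7 genes (42.9%), against 13.3% of all tested genes. They were PSMA3, PSMA4 and PSMA5, and the median log2 fold change of the ring was -0.26. PSMA3 had 140.0, 134 and 139.6 FPKM in the knockout libraries, against 172, 158 and 221 FPKM in the control libraries (log2 fold change -0.40, SE 0.118, adjusted p = 0.0393). PSMA4 had 47.1, 42.8 and 45.96 FPKM in the knockout libraries, against 56.1, 51.4 and 64.9 FPKM in the control libraries (log2 fold change -0.33, SE 0.0938, adjusted p = 0.0336). PSMA5 had 25.97, 25.4 and 25.6 FPKM in the knockout libraries, against 30.7, 28.8 and 36.8 FPKM in the control libraries (log2 fold change -0.31, SE 0.09304, adjusted p = 0.0429). In all 3 genes the knockout libraries lay below every control library, and control 3 was the highest. PSMA1, PSMA2, PSMA6 and PSMA7 had fold changes of -0.26, -0.24, -0.25 and -0.032 on the log2 scale and did not pass the test. The groups overlapped for PSMA2 and PSMA7 but not for PSMA1 and PSMA6. With the GC and length correction the calls of PSMA3, PSMA4 and PSMA5 were lost, with log2 fold changes of -0.12, -0.26 and -0.13 and adjusted p-values of 0.231, 0.0859 and 0.3. Leaving out any 1 knockout library or control 1 also ended all 3 calls, while without control 3 PSMA3 stood at -0.26 with an adjusted p of 0.00192.

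Of the 4 beta subunits without a cutting site, 2 were lower (50%), against 13.3% of all tested genes. PSMB1 showed the lowest fold change of any member and PSMB3 was also lower. PSMB1 lies at chr6:170535117-170553341 on GRCh38 (GENCODE 29), near the end of the long arm. It had 130.0, 119 and 129.8 FPKM in the knockout libraries, against 209, 205 and 278 FPKM in the control libraries, or 54.8% of control (log2 fold change -0.85, SE 0.118, adjusted p = 0.00161). The highest knockout library was far below the lowest control library. PSMB3 had 147, 150.0 and 152 FPKM in the knockout libraries, against 187, 183 and 273 FPKM in the control libraries (log2 fold change -0.49, SE 0.141, adjusted p = 0.0357). The knockout libraries of PSMB3 were close together, below all 3 controls. PSMB2 had 47.7, 49.7 and 48.2 FPKM in the knockout libraries, against 52.1, 54.4 and 59.4 FPKM in the control libraries, without overlap between groups but short of the threshold (log2 fold change -0.18, SE 0.0736, adjusted p = 0.1). PSMB4 had 182, 194 and 186 FPKM in the knockout libraries, against 190.0, 191 and 255 FPKM in the control libraries, with overlapping groups (log2 fold change -0.16, SE 0.115, adjusted p = 0.326). The PSMB3 call was lost without any 1 of the knockout libraries, with adjusted p-values of 0.106, 0.141 and 0.0902, and its fold change without control 3 was -0.30 with an adjusted p of 0.000266.

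The constitutive catalytic subunits and their inducible replacements did not pass the test in either direction, with PSMB6 close to the threshold. At an unadjusted limma p under 0.05, 1 of the 3 constitutive genes was lower (PSMB6) and 0 of the 3 inducible ones were lower or higher. Of all tested genes, 21% were lower and 17.1% higher at that limit. PSMB5 carries the chymotrypsin-like site, PSMB6 the caspase-like site and PSMB7 the trypsin-like site. PSMB5 had 82.98, 90.3 and 85.1 FPKM in the knockout libraries, against 82.9, 83.4 and 104 FPKM in the control libraries (log2 fold change -0.059, SE 0.0991, adjusted p = 0.691). The groups overlapped, with control 3 above the rest. PSMB6 had 117, 126 and 113 FPKM in the knockout libraries, against 135, 140.1 and 184 FPKM in the control libraries (log2 fold change -0.35, SE 0.117, adjusted p = 0.0582). Its groups did not overlap, and its call depended on the setting. It was lower with the replicate number as a block (adjusted p = 0.0439), with TPM (0.0203), after correction for GC content and length (0.0119, or 0.0264 joined with the block) and with nuclear genes scaled to a common sum (0.041). It was also lower without control 1, 2 or 3 (adjusted p = 0.0488, 0.0442 and 0.00816). PSMB7, the most abundant member per length, had 308, 318 and 296 FPKM in the knockout libraries, against 306, 310.3 and 377 FPKM in the control libraries (log2 fold change -0.10, SE 0.09702, adjusted p = 0.472), with overlapping groups.

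The inducible subunits replace the constitutive ones in the immunoproteasome. PSMB8 takes the place of PSMB5, PSMB9 that of PSMB6 and PSMB10 that of PSMB7. PSMB8 and PSMB9 are neighbours in the MHC class II region, at chr6:32840717-32844703 and chr6:32844136-32859585, and share 139 exonic bases on opposite strands. PSMB8 also shares 618 of its 2997 exonic bases with PSMB8-AS1 on the other strand. PSMB9 shares 174 of its 3072 with PSMB8-AS1 on the same strand. Without a stated strand setting, reads from bases shared on opposite strands cannot be told apart. PSMB8 had 43.1, 44.6 and 41.7 FPKM in the knockout libraries, against 41.4, 38.05 and 54.3 FPKM in the control libraries (log2 fold change -0.032, SE 0.1198, adjusted p = 0.871). PSMB9 had 24.3, 26.8 and 23.1 FPKM in the knockout libraries, against 20.2, 21.03 and 27.6 FPKM in the control libraries (log2 fold change 0.11, SE 0.116, adjusted p = 0.498). PSMB10 had 18.9, 21.3 and 18.95 FPKM in the knockout libraries, against 16.6, 16.1 and 25.6 FPKM in the control libraries (log2 fold change 0.047, SE 0.154, adjusted p = 0.849). In PSMB9 and PSMB10 every knockout library was above controls 1 and 2 and below control 3. Without control 3, PSMB9 and PSMB10 were higher in the knockout libraries, with log2 fold changes of 0.25 and 0.25 and adjusted p-values of 0.00851 and 0.00744, where 18.7% of all tested genes were higher. PSMB10 shares 644 of its 1853 exonic bases with a readthrough gene on the same strand, so reads may be split between them.

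Within a library, the ratio of each inducible subunit to its counterpart removes what moves both genes alike. PSMB9/PSMB6 was 0.209, 0.212 and 0.204 in the knockout libraries and 0.1496, 0.1501 and 0.1497 in the control libraries. Its mean was 0.208 ± 0.00405 in knockout and 0.1498 ± 0.000275 in control (SD, n = 3 each), a log2 difference of 0.48 with an exact two-sided permutation p of 0.1. That is the smallest p that 3 against 3 allows, and it became 0.3 after adjustment over the 3 pairs. All 3 knockout libraries were above all 3 controls, and control 3 did not stand apart in this ratio. The log2 fold change was 0.11 for PSMB9 and -0.35 for PSMB6, the denominator. PSMB6 lies on chromosome 17, where 43.5% of tested genes were lower and 1.3% were higher, and PSMB9 on chromosome 6. The tested genes within 5 Mb of PSMB6 had a median log2 fold change of -0.073, with 21 of 150 lower. Those within 5 Mb of PSMB9 had a median of 0.082. The part of position in this ratio was not tested. PSMB8/PSMB5 averaged 0.501 ± 0.0157 in knockout and 0.492 ± 0.0325 in control (SD, n = 3 each; exact permutation p = 0.9, adjusted 0.9). PSMB10/PSMB7 averaged 0.0640 ± 0.00281 in knockout and 0.0580 ± 0.00872 in control (SD, n = 3 each; exact permutation p = 0.4, adjusted 0.6).

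**Figure D3:**
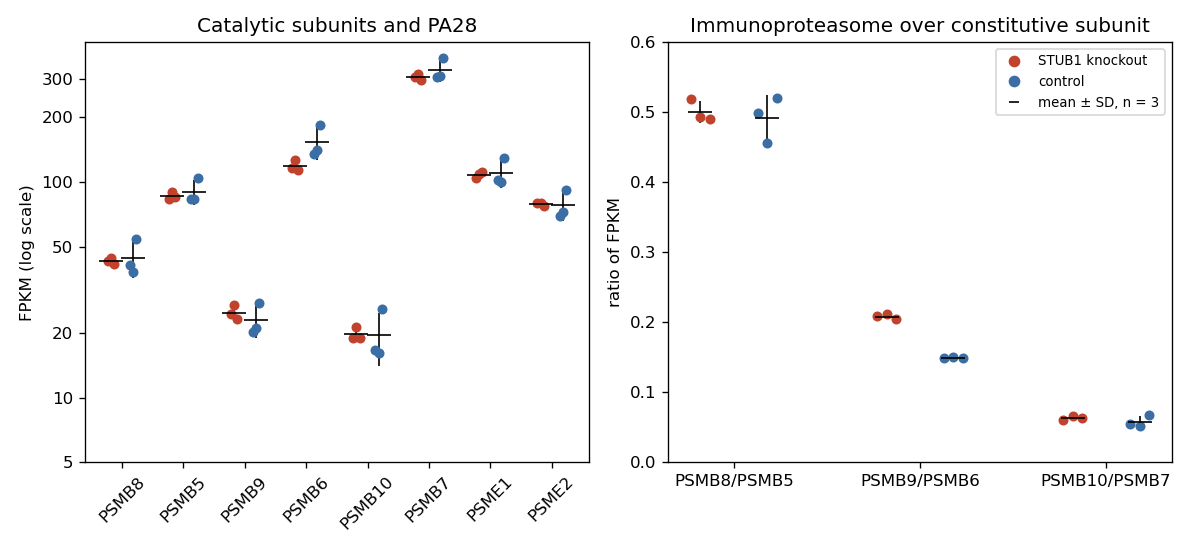
Left, FPKM (log axis) of the inducible and constitutive catalytic subunits and of PSME1 and PSME2, the subunits of the PA28 activator. Right, ratio of each inducible subunit to its counterpart. Points are libraries, STUB1 knockout in red to the left of control in blue, with the mean ± SD (n = 3). The PSMB9/PSMB6 ratio is near 0.208 in knockout and 0.1498 in control.

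The base of the cap holds a ring of ATPases that unfold the substrate. Of its 6 genes 3 were lower (50%), against 13.3% of all tested genes. They were PSMC1, PSMC5 and PSMC6, and the median log2 fold change of the 6 genes was -0.24. PSMC5, at chr17:63827152-63832026, had 62.7, 68.7 and 65.3 FPKM in the knockout libraries, against 85.01, 86.6 and 97 FPKM in the control libraries (log2 fold change -0.44, SE 0.07898, adjusted p = 0.00501). All knockout libraries were below all controls. PSMC1 had 45.7, 44.8 and 45.97 FPKM in the knockout libraries, against 53.9, 52.5 and 56.4 FPKM in the control libraries (log2 fold change -0.25, SE 0.0667, adjusted p = 0.0274). PSMC6 had 47.8, 42.7 and 47.2 FPKM in the knockout libraries, against 52.6, 53.6 and 64.2 FPKM in the control libraries (log2 fold change -0.30, SE 0.0928, adjusted p = 0.0468). PSMC2, PSMC3 and PSMC4 had log2 fold changes of -0.23, 0.074 and -0.17 and did not pass the test. PSMC1 shares 4671 of its 6161 exonic bases with NRDE2 on the other strand and has 13 named pseudogenes, and PSMC5 shares 874 of 4490 with FTSJ3, so reads of these genes are uncertain. The call of PSMC6 was lost with the GC and length correction (log2 fold change -0.17, adjusted p = 0.192), and the calls of PSMC1 and PSMC6 were lost without any 1 knockout library or control 1.

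The other base subunits, the scaffolds and ubiquitin receptors, gave 0 limma calls among 4 genes. Of all tested genes, 13.3% were lower and 9.58% were higher. At an unadjusted limma p under 0.05, 1 of the 4 was lower (PSMD4), against 21% of all tested genes. The median log2 fold change of the 4 genes was -0.02. The scaffold PSMD1 had 34.3, 32.2 and 32.98 FPKM in the knockout libraries, against 35.7, 36.1 and 31.7 FPKM in the control libraries (log2 fold change -0.053, SE 0.07603, adjusted p = 0.644). PSMD2, the other large scaffold, had 162, 168 and 159.7 FPKM in the knockout libraries, against 152, 156 and 148 FPKM in the control libraries (log2 fold change 0.10, SE 0.0694, adjusted p = 0.312). Every knockout library of PSMD2 was above every control, by a margin that did not pass the test. The ubiquitin receptor PSMD4 had 80.4, 87.4 and 83.2 FPKM in the knockout libraries, against 91.6, 89.95 and 114 FPKM in the control libraries (log2 fold change -0.23, SE 0.0989, adjusted p = 0.128), with all knockout libraries lowest. ADRM1, which also binds ubiquitin and anchors the deubiquitinase UCHL5, had 68.5, 76.2 and 68.01 FPKM in the knockout libraries, against 64.1, 67.5 and 81.2 FPKM in the control libraries (log2 fold change 0.0053, SE 0.0992, adjusted p = 0.973). In PSMD1 and ADRM1 the groups overlapped.

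The lid, which removes ubiquitin chains before degradation, was lower in 5 of 8 genes (62.5%), against 13.3% of all tested genes. They were PSMD3, PSMD7, PSMD11, PSMD12 and PSMD14, and the median log2 fold change of the lid was -0.26. PSMD3, PSMD11 and PSMD12 lie on chromosome 17, where 43.5% of tested genes were lower. PSMD12, a scaffold of the lid at chr17:67337916-67366627, had 27.1, 24.5 and 26.1 FPKM in the knockout libraries, against 43.4, 40.1 and 44.9 FPKM in the control libraries, or 60.5% of control (log2 fold change -0.70, SE 0.0753, adjusted p = 0.000512). PSMD3, at chr17:39980797-39997960, had 80.98, 87.1 and 83.7 FPKM in the knockout libraries, against 113, 117 and 105 FPKM in the control libraries (log2 fold change -0.40, SE 0.0738, adjusted p = 0.00557). In both genes the knockout libraries lay below every control, and in PSMD3 control 3 was the lowest of the controls. PSMD14, the deubiquitinase of the lid, had 88.4, 78.2 and 84.6 FPKM in the knockout libraries, against 103, 103 and 112 FPKM in the control libraries (log2 fold change -0.34, SE 0.0776, adjusted p = 0.0154). PSMD7, its structural partner, had 87.6, 84.5 and 85.8 FPKM in the knockout libraries, against 101, 98.6 and 113 FPKM in the control libraries (log2 fold change -0.27, SE 0.0766, adjusted p = 0.0322). PSMD11 averaged 75.6 ± 1.49 FPKM in knockout and 88.8 ± 3.31 FPKM in control (SD, n = 3 each; limma log2 fold change -0.23, adjusted p = 0.04). PSMD6, PSMD8 and PSMD13 had log2 fold changes of -0.25, 0.015 and -0.10 and did not pass the test. The replicate block moved PSMD11 to an adjusted p of 0.0533 and PSMD6 to 0.0453, and the GC and length correction gave -0.10 for PSMD14 (adjusted p = 0.202) and -0.14 for PSMD7 (adjusted p = 0.0353, and 0.0894 with the block). PSMD7 and PSMD11 lost their calls without any 1 knockout library or control 1, PSMD11 also without control 2 (adjusted p = 0.106), and PSMD14 lost its call without knockout 2 or knockout 3.

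Of the 3 chaperones that assemble the base, 1 was lower (33.3%), against 13.3% of all tested genes. It was PSMD10 (gankyrin), and the other 2 did not pass the test. PSMD10, on the X chromosome, had 37.5, 35.2 and 38.8 FPKM in the knockout libraries, against 50.4, 46.5 and 57.4 FPKM in the control libraries (log2 fold change -0.45, SE 0.0892, adjusted p = 0.008). All knockout libraries were below all controls. PSMD5 and PSMD9 had log2 fold changes of -0.014 and 0.0091. With the GC and length correction PSMD10 stood at -0.23 with an adjusted p of 0.00609, and without knockout 2 its adjusted p was 0.0545.

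Of the 5 genes that assemble the core, 1 was lower (20%), against 13.3% of all tested genes. It was PSMG1, and the median log2 fold change of the 5 genes was -0.27. PSMG1, which pairs with PSMG2 to build the alpha ring, had 30.01, 26.8 and 27.1 FPKM in the knockout libraries, against 32.8, 32.5 and 40.9 FPKM in the control libraries (log2 fold change -0.32, SE 0.0996, adjusted p = 0.0455). POMP, which matures the beta rings, had 88.8, 85.3 and 85.6 FPKM in the knockout libraries, against 96.7, 94.04 and 132 FPKM in the control libraries and did not pass the test (log2 fold change -0.29, SE 0.122, adjusted p = 0.111). Its groups did not overlap, and the GC and length correction gave a log2 fold change of 0.055. PSMG2, PSMG3 and PSMG4 had log2 fold changes of -0.27, -0.092 and -0.090. PSMG4 was the least abundant member, at 2.59 FPKM on average in knockout and 2.82 FPKM in control. PSMG1 stood at -0.20 with the GC and length correction (adjusted p = 0.043, and 0.0736 with the replicate block), and its call was lost without any 1 knockout library or control 1.

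Of the 5 genes for activators and an inhibitor, 1 was lower (20%), against 13.3% of all tested genes. It was PSME3, while the interferon-inducible activator subunits were not called. PSME3 encodes the nuclear activator PA28 gamma and lies at chr17:42824385-42843758. It had 36.1, 38.2 and 35.9 FPKM in the knockout libraries, against 51.3, 50.7 and 45.2 FPKM in the control libraries (log2 fold change -0.41, SE 0.0759, adjusted p = 0.00627). All knockout libraries were below all controls, and control 3 was the lowest of the controls. PSME1 and PSME2 encode the alpha and beta subunits of PA28. PSME1 had 104, 109 and 111 FPKM in the knockout libraries, against 102, 99.8 and 129 FPKM in the control libraries (log2 fold change -0.022, SE 0.104, adjusted p = 0.898). PSME2 had 80.03, 79.6 and 77.6 FPKM in the knockout libraries, against 69.7, 72.7 and 92.1 FPKM in the control libraries (log2 fold change 0.028, SE 0.104, adjusted p = 0.871). In both genes the groups overlapped, with control 3 the highest library. Without control 3 PSME2 was higher in knockout (log2 fold change 0.15, limma adjusted p = 0.037), where 18.7% of all tested genes were higher. The nuclear activator PSME4 and the inhibitor PSMF1 had log2 fold changes of -0.13 and 0.11 and did not pass the test.

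Of the 16 lower members, 5 stayed past the threshold in the same direction under all 13 alternatives: PSMB1, PSMC5, PSMD3, PSMD12 and PSME3. With the GC and length correction 14 of 48 members were lower, of which 11 were among the 16, against 14.7% of all genes tested there. The replicate block left 17 of 48 lower, against 14.9%, TPM gave 19 of 48, against 14.4%, and a pseudocount of 0.1 gave 16 of 48, against 13.2%. The correction joined with the replicate block left 10 of 48 lower, against 13.4%, and testing without the filter on low values left 10 of 48, against 9.0%. The 6 calls lost without the filter were PSMA3, PSMA4, PSMA5, PSMB3, PSMC6 and PSMG1. Leaving out 1 knockout library left 7, 5 or 6 of 48 members lower (knockout 1, 2 or 3 left out), against 7.96%, 5.67% and 6.48% of all tested genes. Without control 1, 9 of 48 members were lower, against 8.24%, and without control 2 there were 17 of 48, against 12.7%. Without control 3, 21 of 48 members were lower, against 21.5% of all tested genes, and 3 of 48 were higher (PSMB9, PSMB10 and PSME2), against 18.7%. Scaling the nuclear genes to a common sum left 15 of 48 lower, against 9.02%, and ended the calls of PSMC1 (adjusted p = 0.0556) and PSMD11 (adjusted p = 0.138).

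**Figure D4:**
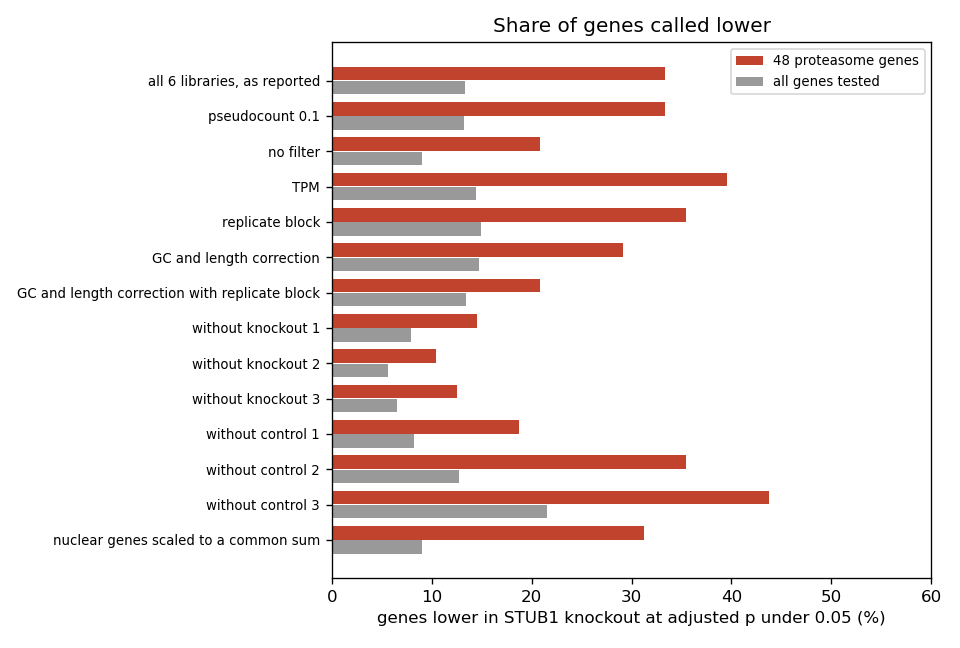
Share of genes called lower in STUB1 knockout at an adjusted p under 0.05 (horizontal axis, percent), for the 48 proteasome genes (red) and all tested genes (grey), with all 6 libraries and under each of 13 alternatives. The share is 33.3% of the members and 13.3% of all tested genes with all 6 libraries.

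The lower members were unevenly placed in the genome. Chromosome 17 carries 7 members (PSMB3, PSMB6, PSMC5, PSMD3, PSMD11, PSMD12 and PSME3), and 6 of them were lower (85.7%), with a median log2 fold change of -0.41. Of 690 tested genes on chromosome 17, 300 were lower (43.5%) and 9 were higher (1.3%), with a median of -0.24. Off chromosome 17, 10 of 41 members were lower (24.4%), with a median of -0.16, against 11.4% of tested genes off that chromosome. Of the 5 members that were lower under every alternative, PSMC5, PSMD3, PSMD12 and PSME3 lie on chromosome 17 and PSMB1 on chromosome 6. Tested genes within 5 Mb gave a local value for each member. Around PSMB1 the neighbours' median log2 fold change was -0.51, and 14 of 16 were lower. Around PSMD12 it was -0.35 with 17 of 29 lower, and around PSMC5 it was -0.37 with 31 of 48 lower. Around PSME3, PSMD3 and PSMB3 it was -0.26, -0.24 and -0.24, and around PSMD10 on the X chromosome -0.29. Around PSMD11, PSMA3 and PSMC6 it was -0.18, -0.18 and -0.17. Around the remaining lower members, PSMA4, PSMA5, PSMC1, PSMD7, PSMD14 and PSMG1, it was -0.0084, 0.031, -0.018, -0.033, 0.011 and 0.051. PSMB6 on chromosome 17, which was not called, had neighbours with a median of -0.073 and 21 of 150 lower. Several windows overlap and share genes, on chromosome 17 and around PSMA3 and PSMC6 on chromosome 14. Across the members, the fold change and the neighbours' median had a Pearson r of 0.78 (n = 48 genes), and 0.71 off chromosome 17 (n = 41 genes). These are correlations across genes that share the same libraries and their depth, and genes are not independent replicates. Of the 48 members, 43 lay below the median of their own neighbours. The part of the position in the fold changes was not tested beyond these values, and DNA copy number was not analysed here.

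**Figure D5:**
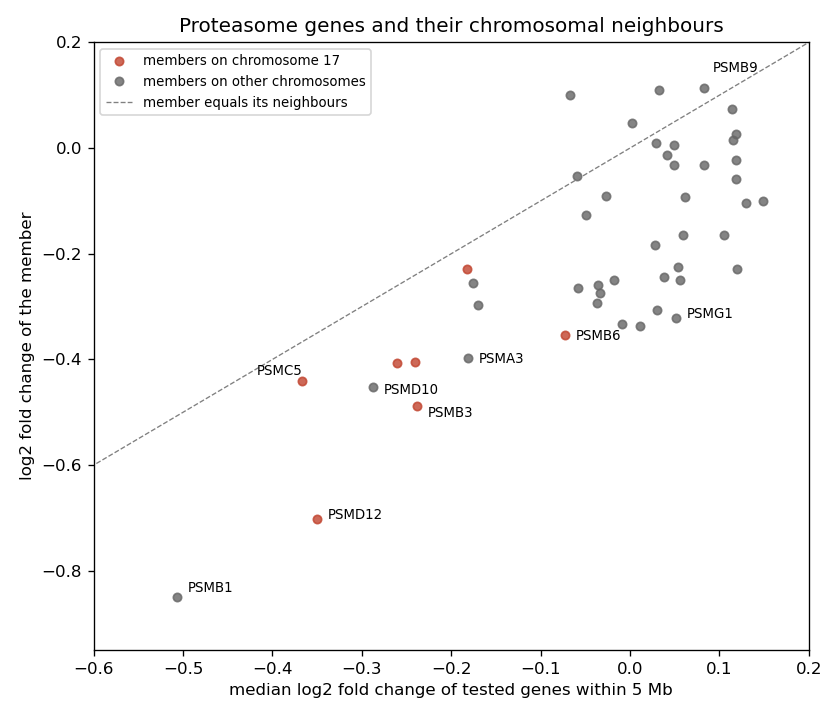
Log2 fold change of each proteasome gene (vertical axis) against the median log2 fold change of tested genes within 5 Mb (horizontal axis), STUB1 knockout over control. Red points are the 7 members on chromosome 17 and the dashed line marks equal values. Of 48 points, 43 lie below the line, and PSMB1 is lowest on both axes.

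Level, length and GC content were not used in choosing the members. Their median level over the 6 libraries was 61.7 FPKM, against 9.94 FPKM for all tested genes with an annotated length. Their median exonic length was 3452 bases, against 4951 bases. Their median GC content was 48.0%, against 48.3%, and ran from 32.0% to 64.2% among the members. Across the 48 members the log2 fold change and GC content had a Pearson r of 0.49, which was 0.08 after the correction. The correction is fitted to this same GC content over all tested genes, so a small r after it is largely built in. With log2 exonic length the Pearson r was -0.01. These are again descriptions across genes of the same libraries.

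Of 13 genes that control transcription of the proteasome, 0 were higher in limma's test, against 9.58% of all tested genes. At an unadjusted p under 0.05, 1 was higher (SYVN1). With the replicate block SYVN1 was called higher (limma adjusted p = 0.0447). Of the 13 genes 3 were lower (23.1%), against 13.3%, with a median log2 fold change of -0.05. NFE2L1, which drives the subunit genes when proteasome activity is short, had 31.8, 33.2 and 30.2 FPKM in the knockout libraries, against 37.4, 41.2 and 28.8 FPKM in the control libraries (log2 fold change -0.15, SE 0.12, adjusted p = 0.376). The groups overlapped, with control 3 the lowest library. Without control 3 NFE2L1 was lower in knockout (log2 fold change -0.30, adjusted p = 0.00171), where 21.5% of all tested genes were lower. With all 6 libraries and the GC and length correction it was also lower (log2 fold change -0.27, adjusted p = 0.045, and 0.0283 with the replicate block). NFE2L1 lies on chromosome 17, where its neighbours within 5 Mb had a median log2 fold change of -0.30, with 52 of 90 lower. NFE2L2, the oxidative stress factor of the same family, had 34.5, 29.5 and 32.6 FPKM in the knockout libraries, against 33.7, 31.98 and 36.6 FPKM in the control libraries (log2 fold change -0.082, SE 0.0843, adjusted p = 0.505). NFE2L3, a relative of both, was lower, with 12.99, 11.8 and 11.8 FPKM in the knockout libraries, against 15.2, 14.8 and 15.3 FPKM in the control libraries (log2 fold change -0.28, SE 0.0709, adjusted p = 0.021). NGLY1, the glycanase that processes the NFE2L1 protein, was lower, with 5.68, 5.48 and 5.88 FPKM in the knockout libraries, against 7.17, 7.04 and 8.98 FPKM in the control libraries (log2 fold change -0.38, SE 0.0949, adjusted p = 0.0215). MAFG, a small MAF partner of these factors on chromosome 17, was lower, with 8.505, 8.797 and 8.73 FPKM in the knockout libraries, against 12.3, 12.04 and 9.52 FPKM in the control libraries (log2 fold change -0.34, SE 0.0976, adjusted p = 0.0362). In each of the 3 lower genes the groups did not overlap. Tested genes within 5 Mb had a median log2 fold change of -0.13 for NFE2L3, -0.21 for NGLY1 and -0.38 for MAFG. Of these neighbours 10 of 47, 4 of 12 and 49 of 73 were lower. The NGLY1 call was lost with the GC and length correction (log2 fold change -0.22, adjusted p = 0.142). Scaling nuclear genes to a common sum ended the calls of NFE2L3 (adjusted p = 0.0665) and MAFG (0.129), and testing without the filter ended that of MAFG (0.0677). All 3 calls were lost without knockout 2 or without knockout 3, that of NGLY1 also without knockout 1, that of NFE2L3 also without control 1, and that of MAFG when any library but control 3 was left out.

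Of 11 tested genes of the interferon pathway that induces the immunoproteasome, 2 were higher (STAT2 and IRF9), against 9.58% of all tested genes, and 1 was lower (IFNGR1), against 13.3%. The other 8 did not pass the test. With the replicate block JAK1 was called higher (log2 fold change 0.30, limma adjusted p = 0.0326), and also with the GC and length correction (0.0108). STAT2 had 10.9, 11.5 and 11.6 FPKM in the knockout libraries, against 8.18, 8.96 and 6.75 FPKM in the control libraries (log2 fold change 0.47, SE 0.0976, adjusted p = 0.0102). IRF9, its partner in the complex that binds interferon-stimulated response elements, had 6.79, 7.92 and 7.94 FPKM in the knockout libraries, against 5.15, 5.94 and 5.07 FPKM in the control libraries (log2 fold change 0.42, SE 0.0888, adjusted p = 0.0106). In both genes every knockout library was above every control. IFNGR1, the ligand-binding chain of the interferon gamma receptor, had 37.4, 34.01 and 36.03 FPKM in the knockout libraries, against 58.2, 58.5 and 61.9 FPKM in the control libraries (log2 fold change -0.72, SE 0.0707, adjusted p = 0.000342). It lies on chromosome 6, where its neighbours within 5 Mb had a median log2 fold change of -0.61, with 21 of 25 lower. IRF1, an activator of the inducible subunit genes, had 12.6, 13.01 and 12.5 FPKM in the knockout libraries, against 11.4, 11.9 and 11.7 FPKM in the control libraries (log2 fold change 0.11, SE 0.0667, adjusted p = 0.248). NLRC5, the activator of MHC class I genes, had 1.76, 2.25 and 1.9 FPKM in the knockout libraries, against 1.45, 1.99 and 1.395 FPKM in the control libraries (log2 fold change 0.19, SE 0.101, adjusted p = 0.203). TAP1, which shares a promoter region with PSMB9 and carries peptides into the endoplasmic reticulum, had 19.5, 19.3 and 19.9 FPKM in the knockout libraries, against 18.4, 19.3 and 18.6 FPKM in the control libraries (log2 fold change 0.058, SE 0.0655, adjusted p = 0.542). IRF1, NLRC5 and TAP1 did not pass the test. Both calls of higher genes were lost without knockout 2, with adjusted p-values of 0.0627 for STAT2 and 0.0635 for IRF9, and the IRF9 call also without knockout 3.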

How the data were processed

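The authors deposited 1 FPKM value per gene and library, per the file headers, for 20014 Ensembl genes. Per the submitters' processing notes, the tools were Trimmomatic 0.36 and Cufflinks beside HISAT2 2.0.5 and featureCounts 1.6.3, with edgeR 3.6.3 and the build GRCh38.p13, each without a stated role. The annotation release and the strand setting are not given in the sources at hand. FPKM is no count, so no count test was run. Steps among low values imply libraries of 45500000 to 52400000 reads, but only 59.6% to 65.5% of 324 to 351 such values lay within 0.15 of a whole read, so reads were not recovered and depth is an estimate.

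Symbols matched 19991 genes in a gene table and 23 in GENCODE 29, which also gave coordinates, GC content and length. The 48 members and all gene lists were chosen with earlier results of these data known, which also held for the tests. The 11262 genes averaging at least 1 FPKM were tested as log2(FPKM + 1), a scale that understates changes of low genes. Genotype was the only term of the model, fitted in R 4.3.3 by limma 3.58.1 with an intensity trend, adjusted by Benjamini-Hochberg and checked on simulated data. Ratios used an exact two-sided permutation test over libraries, which cannot go under 0.1. Plots were drawn with matplotlib 3.10.9, and tables with scipy 1.17.1, numpy 2.4.6 and pandas 2.3.3 under Python 3.11.15. No column of another sample was present (0 columns).

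In each subcomplex, members past the threshold, or else those with the smallest p, up to 4, were given all 6 values. Catalytic and PA28 genes were always given. In outside lists, genes past the threshold (up to 4), NFE2L1, NFE2L2, IRF1, NLRC5 and TAP1 were named. Not every gene under that rule is reported here. LCP1, PSMD11 and others are named beyond that rule, after their values were seen. Alternatives were a pseudocount of 0.1, no filter, TPM, a replicate block, a correction for GC content and length (splines of 4 degrees of freedom per library), both together, and leaving out each library. Scaling nuclear genes to a common sum was added after seeing the data. Replicate numbers are shared between groups, and deviations from the group means correlated between same-numbered libraries at 0.375, 0.15 and 0.188. All exceed 0.1, the limit set for reading the numbers as pairs, although the labels name no common day or batch. The reported fit has genotype alone, and the block entered as an alternative, given beside a result where it changes a call.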

Additional observations from a re-analysis of the deposited data

How the results depend on the processing

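Lower calls among the 48 members numbered 16, and 10 without the filter and 10 with the GC and length correction joined with the replicate block. Leaving out 1 library gave 5 to 24 called members and 1030 to 4521 called genes of all tested, against 2579. The median log2 fold change with the GC and length correction was -0.17 for the base ATPases and -0.14 for the lid, with or without the block. Leave-one-out medians of the activators and inhibitor ran from -0.088 to 0.069. The PSMB8/PSMB5 log2 ratio was 0.028, -0.033 with the GC and length correction, and -0.025 to 0.070 when 1 library was left out. The replicate block added PSMB6 and PSMD6 to the lower members and dropped PSMD11. It also called the keratinocyte marker KRT15 lower (limma adjusted p = 0.0494). Outside the members, it called SYVN1 and JAK1 higher (limma adjusted p = 0.0447 and 0.0326). It changed no other call reported in the text. A sign change occurred in 13 members (47 of 624 values) and in 0 called members. With the GC and length correction, with or without the block, log2 fold changes of the other sign were 0.00085 for PSMB5, 0.015 for PSMD1, -0.073 for ADRM1, -0.0062 for PSMD8, 0.13 for PSMD5, -0.087 for PSMD9, 0.055 for POMP, 0.021 for PSME1, -0.027 for NLRC5 and -0.060 for TAP1. With TPM they were -0.039 for ADRM1, -0.029 for PSMD8, -0.032 for PSMD9 and -0.016 for PSME2. With nuclear genes scaled to a common sum they were 0.015 for PSMA7, 0.015 for PSMB8, 0.033 for PSMD5 and 0.026 for PSME1. When 1 library was left out, fold changes of both signs ran from -0.12 to 0.12 for PSMA7, -0.12 to 0.049 for PSMB5, -0.14 to 0.12 for PSMB8, -0.067 to 0.25 for PSMB10, -0.063 to 0.11 for ADRM1, -0.020 to 0.058 for PSMD8, -0.074 to 0.020 for PSMD5, -0.060 to 0.14 for PSMD9, -0.19 to 0.058 for PSMG3, -0.088 to 0.098 for PSME1 and -0.049 to 0.15 for PSME2. The cause was not tested. Depth is known only as an estimate, so no counting interval was computed for low values.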

Other observations

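Of 8 deubiquitinases and shuttle factors, 1 was lower (12.5%), against 13.3% of all tested genes, and 0 were higher (1 at an unadjusted limma p under 0.05). It was UCHL5, the deubiquitinase bound by ADRM1, with 18.2, 16.4 and 18.8 FPKM in the knockout libraries, against 21.9, 20.3 and 21.8 FPKM in the control libraries (log2 fold change -0.25, SE 0.07702, adjusted p = 0.0455). With the GC and length correction UCHL5 stood at -0.055 (adjusted p = 0.377). Its call was also lost without the filter (0.0551) and with nuclear genes scaled to a common sum (0.116). It was lost, too, without any 1 knockout library or control 1.

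Of 11 other partners of the proteasome, 9 were tested, 2 were lower (22.2%), against 13.3% of all tested genes, and 0 were higher (0 also at an unadjusted limma p under 0.05). AKIRIN2, which brings proteasomes into the nucleus, had 20.2, 19.97 and 19.7 FPKM in the knockout libraries, against 29.6, 27.9 and 33.7 FPKM in the control libraries (log2 fold change -0.58, SE 0.0822, adjusted p = 0.00176). AKIRIN2 lies on chromosome 6, and 23 of its 24 tested neighbours within 5 Mb were lower, with a median of -0.57. TXNL1, a thioredoxin-like protein bound to the cap, had 6.68, 6.17 and 6.95 FPKM in the knockout libraries, against 8.27, 8.19 and 9.31 FPKM in the control libraries (log2 fold change -0.33, SE 0.0802, adjusted p = 0.0182). In both genes every knockout library was below every control. Leaving out any 1 knockout library ended the TXNL1 call, with adjusted p-values of 0.0596, 0.0795 and 0.0541, and so did the GC and length correction (log2 fold change -0.24, adjusted p = 0.0698), though not joined with the replicate block (0.0435). The germ-cell subunit PSMA8 and the thymic subunit PSMB11 were below the filter on low values and were not tested.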
